A study of Homo sapiens with 23 samples.

Results

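The subject here is a set of 12 RNAs with LINC names, the numbered symbols given to long intergenic RNAs, in drug-resistant melanoma clones and the untreated line they came from. They were chosen by name (a LINC number, a small nucleolar RNA host name, a microRNA host name, or GAS5, MALAT1, NEAT1 or MEG3) and by a measured value, a deposited TPM (a relative transcript abundance corrected for length) of at least 1 in at least 2 of 23 libraries. Of the 35438 genes in the table, 24 had such a name, 23 of them LINC names and 1 a microRNA host name, MIR670HG, and 12 reached the minimum. All 12 were LINC-named, so the group is narrower than long noncoding and host RNAs at large, and GAS5, MALAT1, NEAT1 and MEG3 were not analysed here. The second-highest deposited TPM, which decides membership, was 1.70 for LINC00933, 1.89 for LINC00634 and 2.68 for LINC00537 just inside the minimum, and 0.937 for LINC00692, 0.876 for LINC00346 and 0.246 for LINC01118 just outside it. Of the 12, 6 reached the minimum in all 23 libraries, and 2, LINC01119 and LINC00933, passed through clone libraries alone.

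The cells were WM989 A6-G3, a human melanoma line with mutant BRAF that had been bottlenecked through a single cell, with the genotype labelled WT in every group. Untreated cells had 3 libraries and no drug in the medium. Clones 7, 8 and 9 were colonies that had become resistant to 1 µM vemurafenib, which blocks mutant BRAF, with 3 libraries each. Clones 10, 11, 12 and 13 were resistant to dabrafenib, another BRAF inhibitor, at 250 nM together with trametinib, a MEK inhibitor, at 2.5 nM, with 3 libraries each except clone 11 with 2. Each clone is 1 expanded colony, and resistance cannot be told apart from the presence of drug, since the untreated cells had none. The labels call the replicates biological without saying what separates them, so p-values measure the spread between these libraries, which may be technical.

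Long noncoding RNAs are transcribed and often spliced and polyadenylated like messenger RNAs, but most are not translated. Some serve as hosts, whose introns are cut out and trimmed into small nucleolar RNAs that guide the modification of ribosomal and other RNAs, while the spliced exons are often degraded by nonsense-mediated decay. Others were later found to hold a short reading frame that makes a microprotein, and many lie beside a protein-coding gene and are described with it. All 12 names matched a RefSeq gene, 10 of them as long noncoding RNAs and 2 as protein-coding genes. RefSeq now calls LINC00998 SMIM30 and LINC00634 SMIM45, both genes of small integral membrane proteins, and calls LINC00888 SNHG33, a host whose locus holds SNORA63D and SNORA63E. LINC00632 is the locus from whose strand the circular RNA CDR1-AS is made; the circular form was not matched to any value.

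The libraries came from poly(A)-selected RNA, so the exons of a host were captured but not the small nucleolar RNAs themselves. The read depth behind the TPM values is unknown. Clone 10 replicate 1 stood apart, with 14415 genes above 0 against 18671 to 24039 in the other libraries, and it listed 6 of the 12 RNAs at 0. Clone 8 replicate 3 stood apart by composition: ribosomal protein genes made up 27.6% of its TPM against 17.9% and 19.9% in the other libraries of clone 8. Levels below are scaled TPM, the deposited TPM multiplied by a factor per library (0.877 to 1.35) that aligns the bulk of genes, and differences are on the log2(scaled TPM + 1) scale, which understates changes of low genes. In bulk samples fewer cells with a transcript and less transcript per cell cannot be told apart. The 8 melanocyte markers summed to 12678 to 13143 scaled TPM in the untreated libraries and to 30.8 to 479 in the clone libraries, where all 8 were called lower with a median log2 difference of -6.76.

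The start regions of 4 of the RNAs are shown because the results turn on these 4. They are the one lower in every clone library, one lower in several clones, one called higher in 2 clones and the most abundant. Each is read 5′ to 3′ on the gene's strand from RefSeq (GRCh38.p14), 250 bases before to 50 bases after the annotated start, except SMIM30, where only the 250 bases before it are given. Capitals mark matches, on either strand, to any of 7 short motifs: the TATA box TATAAA, the CCAAT box CCAAT, the AP-1 motif TGANTCA, the TEAD motif GGAATG, the MITF E-box CATGTG, the STAT motif TTCNNNGAA and the GC box GGGCGG.
LINC01119, chr2:46827614-46827913, + strand: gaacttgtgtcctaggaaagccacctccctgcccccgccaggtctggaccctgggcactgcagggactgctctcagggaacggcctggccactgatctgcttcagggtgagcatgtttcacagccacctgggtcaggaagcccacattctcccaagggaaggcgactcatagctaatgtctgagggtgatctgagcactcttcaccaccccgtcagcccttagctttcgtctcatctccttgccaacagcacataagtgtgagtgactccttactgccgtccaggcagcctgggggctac
LINC00888 (SNHG33), chr3:183447358-183447657, + strand: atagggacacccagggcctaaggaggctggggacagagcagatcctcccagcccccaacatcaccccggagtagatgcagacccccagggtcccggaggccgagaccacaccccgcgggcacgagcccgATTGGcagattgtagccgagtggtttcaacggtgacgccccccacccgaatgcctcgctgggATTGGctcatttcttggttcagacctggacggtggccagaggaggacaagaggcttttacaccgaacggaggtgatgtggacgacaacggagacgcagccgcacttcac
LINC00908, chr18:76528405-76528704, + strand: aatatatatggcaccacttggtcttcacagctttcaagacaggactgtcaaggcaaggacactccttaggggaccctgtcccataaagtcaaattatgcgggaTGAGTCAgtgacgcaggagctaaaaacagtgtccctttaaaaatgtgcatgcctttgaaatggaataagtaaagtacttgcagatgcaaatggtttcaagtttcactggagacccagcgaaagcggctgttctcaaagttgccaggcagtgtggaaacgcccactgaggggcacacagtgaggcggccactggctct
LINC00998 (SMIM30), chr7:113118555-113118804, − strand: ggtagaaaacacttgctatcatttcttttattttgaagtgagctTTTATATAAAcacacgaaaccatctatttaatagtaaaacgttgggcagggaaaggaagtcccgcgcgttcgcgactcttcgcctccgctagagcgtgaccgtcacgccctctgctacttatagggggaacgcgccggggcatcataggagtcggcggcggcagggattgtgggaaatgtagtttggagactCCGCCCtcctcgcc

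None of the 7 motifs was found in the LINC01119 window, which has a GC content of 58.7% and 6 CpG dinucleotides. The LINC00888 window holds the CCAAT box 2 times, read as ATTGG on this strand, and 19 CpG dinucleotides. The LINC00908 window holds the AP-1 motif 1 time, and 6 CpG dinucleotides. The region before SMIM30 holds the TATA box 2 times, overlapping on opposite strands, and the GC box 1 time; the 50 bases after its start, which are not printed, add 1 match to the TEAD motif and 1 to the STAT motif that lie in them or run into them. Over 35116 RefSeq promoters of the same 300 bases, the CCAAT box was in 34.6%, the AP-1 motif in 7.71%, the TATA box in 11.5%, the GC box in 45%, the TEAD motif in 14%, the MITF E-box in 11.1% and the STAT motif in 7.66%, and the median promoter had 58.7% GC and 14 CpG dinucleotides. Many host genes of small nucleolar RNAs start with a run of pyrimidines, the terminal oligopyrimidine tract they share with ribosomal protein genes. LINC00888 has 1 pyrimidine at its first annotated start and 0 at its second, and a run of at least 1 was found in 21.9% of all promoters. A match is a description of letters and not of binding.

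The first comparison asked how these RNAs differ between the resistant clones and the untreated line. A gene was called when its Benjamini-Hochberg adjusted p in limma's test, over all 15657 genes tested, was under 0.05 and its log2 difference was at least 1 in size. For the mean of the 7 clones against untreated, 0 of the 12 were called, where 18.8% of all genes tested were. The SE and p of this mean come from the spread of libraries within groups. They do not cover the spread among clones, so they speak for these 7 clones only. At an adjusted p under 0.05 without the fold minimum, 6 of the 12 passed against 56.6% of all genes, 2 of them higher against 29.3% and 4 lower against 27.3%, and the count at an unadjusted p under 0.05 was also 6, against 60.6%. The higher pair was LINC01119 and LINC00998, and the lower 4 were LINC00888, LINC00908, LINC01002 and LINC00999. Of the 6, 3 lost this threshold under some alternative. LINC00908 had an adjusted p of 0.0674 without untreated replicate 1, 0.0641 without untreated replicate 2 and 0.0994 with a pseudocount of 0.1. LINC00999 had 0.14 without untreated replicate 2, 0.165 without untreated replicate 3, 0.212 in the values as deposited and 0.0627 with every gene above 0 in at least 2 libraries tested, and LINC01002 had 0.0715 in the values as deposited. The median log2 difference was -0.23 over the 12 and -0.01 over all genes tested; in the values as deposited, without the scaling, these were -0.09 and 0.14.

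**Figure D1:**
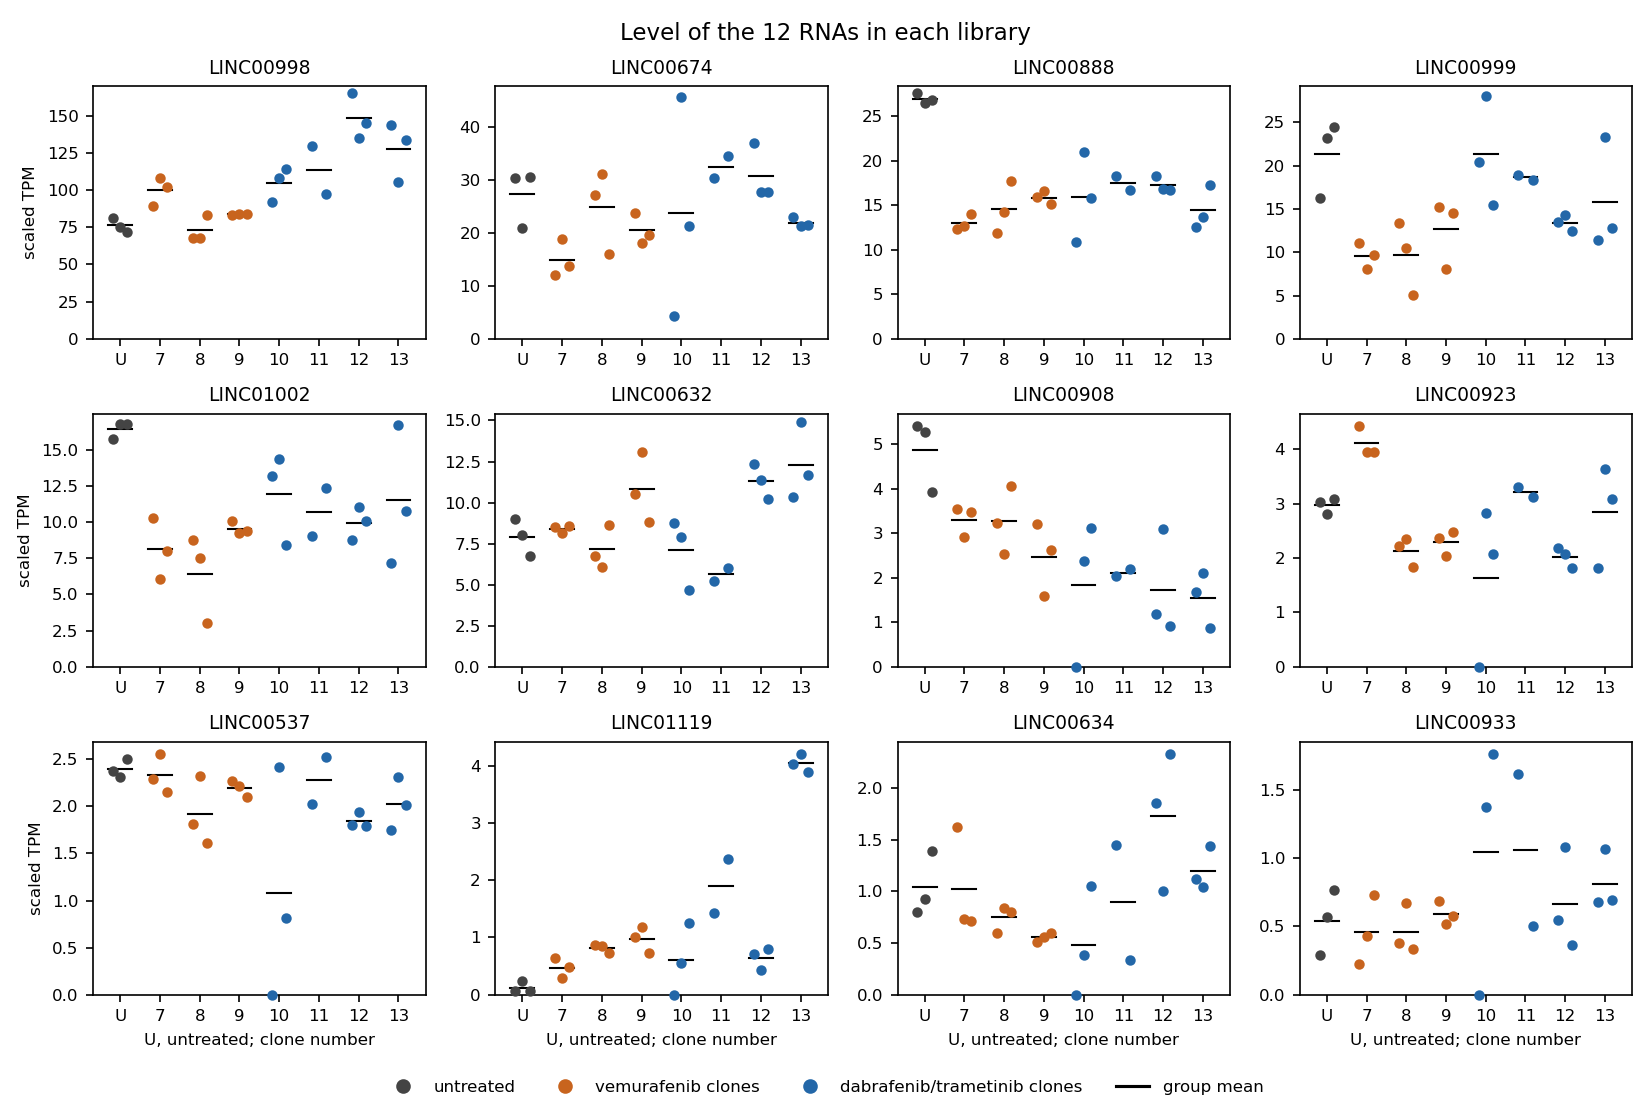
Level of each of the 12 LINC-named RNAs in every library, in scaled TPM on linear axes from 0, by group (U for untreated, then clones 7 to 13, coloured by drug), with 1 point per library and a line at each group mean. LINC00888 lies at 26.4 to 27.5 in the untreated libraries and at 10.9 to 21.0 in the clone libraries, and LINC01119 is highest in clone 13.

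LINC00888, the host RNA SNHG33, was lower in every clone. Its level was 27.5, 26.4 and 26.8 scaled TPM in the untreated libraries and 10.9 to 21.0 in the 20 clone libraries, so the groups did not overlap. It was the only one of the 12 with all 20 clone libraries below all untreated libraries, a pattern that 13.3% of all genes tested showed. None of the 12 had all 20 above, against 14.5% of genes. Counts of 18 or 19 of 20, given below for LINC00998, LINC01119, LINC00908 and LINC01002, are a looser pattern. Its share of all genes is not given here and can be no smaller than the strict one. Nothing particular to these RNAs is read from such counts. Group means were 26.9 ± 0.56 (SD, n = 3) in untreated cells and 13.0, 14.6, 15.9, 15.9, 17.5, 17.2 and 14.5 in clones 7 to 13. The mean difference was -0.78 on the log2 scale (SE 0.13, limma adjusted p = 4.67e-05). Only clone 7 reached the fold minimum, at -1.002 (adjusted p = 7.97e-05), and there the call sat on the threshold: it was lost at -0.99 without untreated replicate 1, -0.97 without clone 7 replicate 1, -0.99 without clone 7 replicate 2, -0.996 without clone 8 replicate 3 and -0.997 without clone 10 replicate 1, and at -0.92 in the values as deposited. The clones did not pass the test of differences among themselves for this RNA (F test adjusted p = 0.369).

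Gene groups tied to host RNAs were read beside the 18.8% of all genes tested that were called and the 60.6% with an unadjusted p under 0.05. Of 13 small nucleolar ribonucleoprotein genes tested, 0 were called in either direction in the mean of the clones by limma and 7 had an unadjusted p under 0.05, with a median log2 difference of -0.26. FBL, the 2′-O-methyltransferase fibrillarin, had -0.93 (adjusted p = 6.22e-05), below the fold minimum, and NOP56, a core protein of the same particles, -0.26 (adjusted p = 0.0931). Of 77 ribosomal protein genes, 8 were called lower and 0 higher, with a median of -0.69, and 66 had an unadjusted p under 0.05; RPS3 had -1.14 (adjusted p = 2.37e-05) and RPL5 -1.04 (adjusted p = 4.54e-07). Their summed level was 216347 to 257440 scaled TPM in untreated cells, 158118 to 371263 in vemurafenib clones and 84378 to 142955 in dabrafenib and trametinib clones; the highest was clone 8 replicate 3. Of 14 nonsense-mediated decay genes, 0 were called, 6 had an unadjusted p under 0.05, and the median was -0.21; UPF3A, an exon junction adaptor of the pathway, had -0.95 (adjusted p = 0.000196). The part of these genes in the level of LINC00888 was not tested.

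The 2 genes that RefSeq lists as protein-coding lay far apart in level. LINC00998, or SMIM30, was at 81.3, 75.4 and 72.0 scaled TPM in untreated cells, a mean of 76.2 ± 4.72 (SD, n = 3). Its clone means were 99.8, 73.0, 83.6, 105, 114, 148 and 128 in clones 7 to 13, and 18 of 20 clone libraries were above all untreated libraries; the other 2, clone 8 replicates 1 and 2 at 67.9 and 67.8, were below them. The mean log2 difference was 0.45 (SE 0.10, limma adjusted p = 0.000953). Clone 12 had 0.95 (adjusted p = 8.42e-06) and clone 13 had 0.73 (adjusted p = 0.000165), while clone 8 had -0.07 (adjusted p = 0.715), and no clone reached the fold minimum. LINC00634, or SMIM45, whose locus overlaps the centromere protein gene CENPM, was at 0.803, 0.925 and 1.39 in untreated cells and at 0 to 2.33 in clone libraries, with clone means of 0.480 to 1.73. Its mean difference was -0.11 (adjusted p = 0.647), and without untreated replicate 3 it was 0.0071. Where overlapping genes share sequence, counting that does not use strand cannot tell their reads apart. In the GENCODE v29 transcripts, which are not the authors' annotation, LINC00634 has 1519 words of 31 bases. Of these words, 0 occur in other genes. CENPM itself had a mean difference of 0.19 (limma adjusted p = 0.484).

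LINC01119, an RNA beside the gene of the cytokine signalling suppressor SOCS5, was called higher in clones 11 and 13. Untreated libraries held 0.0623, 0.235 and 0.0661 scaled TPM. Clone 13 held 4.04, 4.21 and 3.90, and clone 11 held 1.43 and 2.38, so every library of both clones was far above the untreated ones. The means in clones 7, 8, 9, 10 and 12 were 0.475, 0.819, 0.976, 0.601 and 0.640. Of the 20 clone libraries, 19 exceeded all untreated libraries, and clone 10 replicate 1, the library with few detected genes, was listed at 0. The log2 difference from untreated was 2.17 in clone 13 (SE 0.21, limma adjusted p = 6.4e-08) and 1.36 in clone 11 (SE 0.24, adjusted p = 9.94e-05), and both calls held under all 31 alternatives run, at 2.14 to 4.32 and 1.12 to 3.23. The mean over clones was 0.92 (SE 0.16, adjusted p = 7.33e-05), just under the fold minimum; with a pseudocount of 0.5 in place of 1 it was 1.33. Because this RNA passed the TPM minimum through clone libraries alone, its rise is partly built into how it was selected. In the GENCODE v29 transcripts, 6.59% of its 31-base words also occur in its neighbour LINC01118.

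LINC00908, also listed as ASRPS after a small peptide it encodes, was called lower in 3 of the dabrafenib and trametinib clones. It was at 5.40, 5.26 and 3.93 scaled TPM in untreated cells, and 19 of 20 clone libraries lay below all of them; the exception was clone 8 replicate 3 at 4.06. The means were 3.30, 3.27 and 2.47 in clones 7 to 9 and 1.83, 2.11, 1.73 and 1.55 in clones 10 to 13. The log2 differences were -1.28 in clone 10 (limma adjusted p = 0.00969), -1.18 in clone 12 (adjusted p = 0.0173) and -1.22 in clone 13 (adjusted p = 0.0133), and the mean over clones was -0.89 (SE 0.29, adjusted p = 0.0141); without untreated replicate 3 that mean reached -1.02. Single libraries decided these calls. Clone 10 held 0, 2.37 and 3.12, and without its replicate 1 the difference was -0.64 (adjusted p = 0.0702). Clone 12 held 1.18, 3.09 and 0.923, and its call was lost without replicate 1 or 3 or without untreated replicate 1 or 2 (adjusted p = 0.0521 to 0.0812); clone 13 held 1.69, 2.11 and 0.868, and lost its call without replicate 3 (adjusted p = 0.0657).

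LINC00999 was called lower in clones 7 and 8 and LINC01002 in clone 8, all vemurafenib clones. LINC00999 was at 16.2, 23.2 and 24.4 scaled TPM in untreated cells. It was at 11.1, 8.09 and 9.65 in clone 7 (-1.06, limma adjusted p = 0.00775) and at 13.3, 10.5 and 5.04 in clone 8 (-1.14, adjusted p = 0.00454), below every untreated library. The other clones had means of 12.6, 21.3, 18.6, 13.4 and 15.8 in clones 9 to 13, and the mean over clones was -0.60 (adjusted p = 0.0354). Without clone 8 replicate 3 the clone 8 difference was -0.77, and the clone 7 call was lost without untreated replicate 2 (-0.99), untreated replicate 3 (-0.95) or clone 7 replicate 2 (-0.95), and in the values as deposited (-0.98).

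LINC01002 was at 15.8, 16.8 and 16.8 in untreated cells and at 3.00 to 16.7 in clone libraries, of which 19 of 20 lay below all untreated libraries; the exception was clone 13 replicate 2. It was called in clone 8 at -1.33 (limma adjusted p = 0.000962), with libraries at 8.78, 7.53 and 3.00, and was at -0.93 without the last of these. In clone 8 replicate 3 the ribosomal protein share was also the highest of all libraries, and its part in both values was not tested. LINC01002 is uncertain as a gene: 77.8% of its 31-base words in GENCODE v29 occur in other genes, so reads could be split among copies. LINC00999 and LINC00537 have 0 transcripts of those names in GENCODE v29, so this sharing could not be read for them. For LINC00674 the share was 21.5%.

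Another 5 RNAs, like LINC00998 and LINC00634, were not called in any clone. LINC00674 was at 30.3, 21.0 and 30.6 scaled TPM in untreated cells and 4.24 to 45.6 in clone libraries, both ends in clone 10. LINC00632 had 7.91 ± 1.13 (SD, n = 3) in untreated cells and clone means of 5.63 to 12.3, with clones 12 and 13 highest. LINC00923 had 2.97 ± 0.14 in untreated cells and clone means of 1.63 to 4.11, with clone 7 highest. LINC00537, whose locus overlaps pseudogenes, had 2.40 ± 0.0973 and clone means of 1.08 to 2.33. LINC00933, which overlaps the pseudogene UBE2Q2P1 and shares 11.5% of its 31-base words with other genes, had 0.543 ± 0.238 and clone means of 0.460 to 1.06. Their mean log2 differences were -0.27, 0.11, -0.21, -0.25 and 0.13, and with LINC00634 at -0.11 the limma adjusted p ran from 0.317 to 0.647. These values do not show that the levels were equal.

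**Figure D2:**
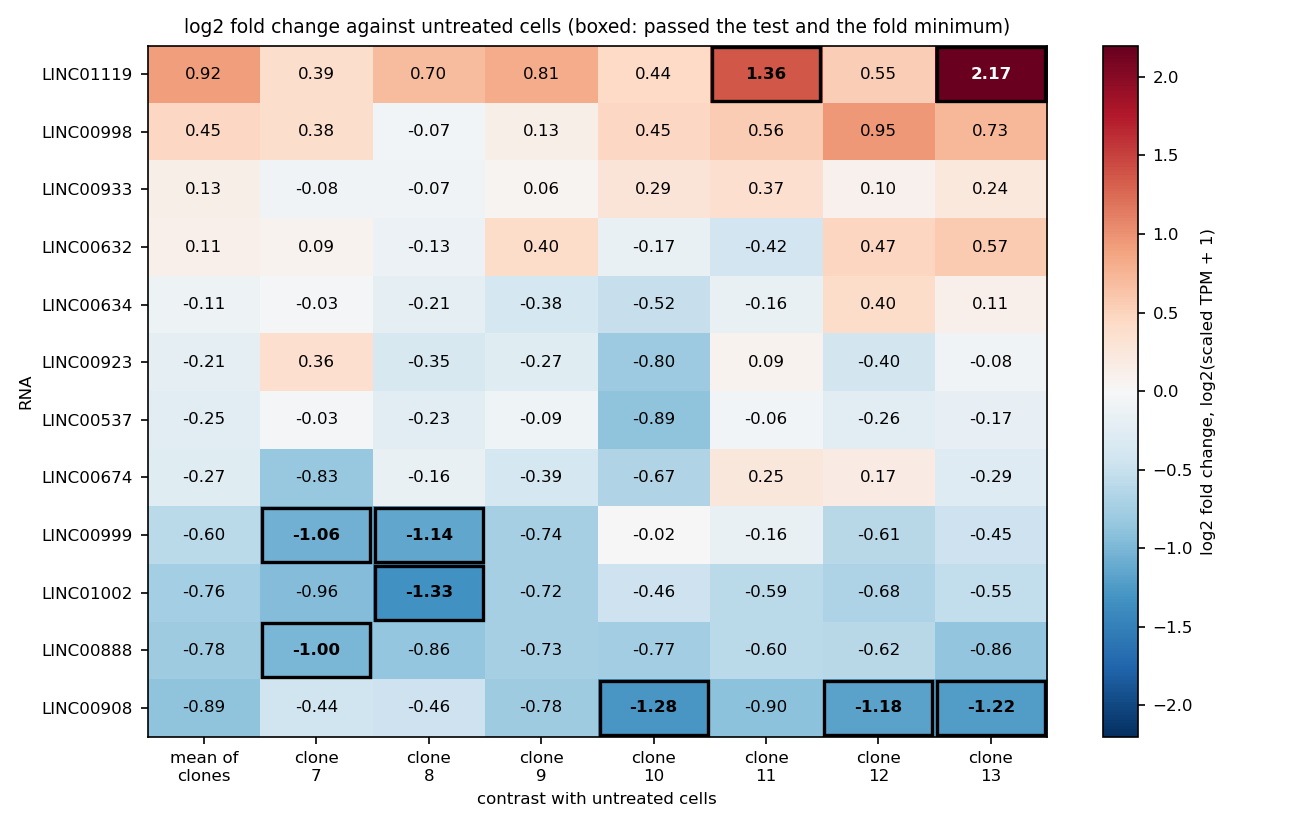
Log2 difference of each of the 12 RNAs from untreated, for the mean of the 7 clones and for each clone, as colour and number on the log2(scaled TPM + 1) scale, with a box where the adjusted p is under 0.05 and the size at least 1. The 9 calls belong to 5 RNAs, and the strongest is LINC01119 in clone 13 at 2.17.

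Over the 84 pairs of an RNA and a clone, 9 were called, 7 lower and 2 higher, and 5 of the 12 RNAs were called in at least 1 clone against 38% of all genes tested. The counts of called RNAs were 2 in clone 7 (19.5% of all genes tested), 2 in clone 8 (20.3%), 0 in clone 9 (19.8%), 1 in clone 10 (22.3%), 1 in clone 11 (21.2%), 1 in clone 12 (19.5%) and 2 in clone 13 (20.6%). All these contrasts share the 3 untreated libraries.

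The next comparison asked how the clones differed from each other. By an F test over the 7 clones with a range of clone means of at least 1 on the log2 scale, 3 of the 12 were called, against 25.3% of all genes tested. LINC01119 had a range of 1.78 (limma adjusted p = 1.02e-05), and clone 13 was above clones 7, 8, 9, 10 and 12 by 1.36 to 1.78. Clone 13 differed from clone 11 by 0.82 (adjusted p = 0.0205), less than the fold minimum. This RNA passed the TPM minimum through clone libraries alone, all 3 of clone 13 among them. Its range is therefore partly built into how it was selected. LINC00998 had a range of 1.02 (adjusted p = 6.65e-05), from clone 8 to clone 12, and that pair was called; the range was 0.97, 0.97 and 0.94 without clone 8 replicate 1, clone 8 replicate 2 or clone 12 replicate 1. LINC00999 had a range of 1.12 (adjusted p = 0.0314), with clone 10 above clones 7 and 8, and this call was lost when any of clone 7 replicates 2 or 3, clone 10 replicates 1 or 2, or clone 11 replicates 2 or 3 was left out (adjusted p up to 0.0749), and with every gene above 0 in at least 2 libraries tested (adjusted p = 0.0663). LINC00632 passed the test (adjusted p = 0.00215) with a range of 0.995, just under the minimum. One further pair was called, LINC00923 higher in clone 7 than in clone 10 by 1.17 (adjusted p = 0.00761), where clone 10 replicate 1 was listed at 0.

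Between the drug arms, tested on the means of 3 vemurafenib and 4 dabrafenib and trametinib clones, 0 of the 12 were called by limma and 0.0128% of all genes tested were. At an unadjusted p under 0.05 there were 4, against 14.4% of genes, and 5 had arms that did not overlap over clone means, against 14.3% of genes. LINC00908 was lower in the dabrafenib and trametinib arm by a log2 difference of -0.59 (adjusted p = 0.233). LINC00999 had 0.67 (adjusted p = 0.236), LINC00998 0.52 (adjusted p = 0.261), LINC01002 0.44 (adjusted p = 0.31) and LINC00933 0.28 (adjusted p = 0.354), all with the dabrafenib and trametinib clones above the vemurafenib clones. None of these passed the correction. By deposited TPM, LINC00933 reached the minimum of 1 only in dabrafenib and trametinib libraries. Its higher level in that arm, and its place among the 5, are therefore partly built into how it was selected.

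Because many such RNAs lie beside protein-coding genes, the nearest protein-coding gene on each side in RefSeq was set beside each. Of 24 such neighbours 19 were in the table, and with CENPM 17 were tested, of which 2 were called higher, 2 lower and 13 not called in the mean of the clones. These 4 of 17 stand beside 18.8% of all genes tested, and nothing particular to the neighbours is read from the count. LINC01119 lies between SOCS5 and MCFD2, a cargo receptor subunit. SOCS5 was at 7.57 ± 0.714 (SD, n = 3) scaled TPM in untreated cells and at means of 19.5 to 24.3 in the clones, with a mean log2 difference of 1.39 (limma adjusted p = 9.87e-08), and MCFD2 had 0.45 (adjusted p = 6.5e-05). In clone 13 SOCS5 differed by 1.37 and in clone 11 by 1.54, where LINC01119 differed by 2.17 and 1.36. LINC01119 reached the fold minimum in these 2 clones alone, but its means in all 7 clones were above untreated. Under that minimum it had 0.70 in clone 8 (limma adjusted p = 0.0101), 0.81 in clone 9 (0.00375) and 0.55 in clone 12 (0.0414). Clones 7 and 10 had 0.39 (0.139) and 0.44 (0.0918).

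Beside LINC00888, MCF2L2, a guanine nucleotide exchange factor, fell from 3.61 to clone means of 0.947 to 1.19 scaled TPM (-1.16, limma adjusted p = 1.09e-07), and KLHL6, an adaptor of a ubiquitin ligase, had -0.64 (adjusted p = 1.15e-06). Beside LINC00908, the zinc finger gene ZNF516 fell from 12.3 to 3.61 to 5.48 (-1.22, adjusted p = 8.54e-06), and ZNF236 on its other side had -0.35 (adjusted p = 0.2). Beside LINC00923, ARRDC4, an arrestin-domain gene, rose from 1.11 to 14.8 to 24.3 (3.26, adjusted p = 6.01e-11), while LINC00923 itself had -0.21 and the nuclear receptor NR2F2 on its other side 0.16 (adjusted p = 0.267). Beside LINC00999, ZNF33B had -0.92 (adjusted p = 4.01e-08), under the fold minimum, and ZNF37A 0.06 (adjusted p = 0.617). Beside LINC00998, GPR85, an orphan receptor, had -0.04 (adjusted p = 0.749), and the neighbours of LINC00674, KPNA2 and AMZ2, had 0.13 (adjusted p = 0.511) and 0.06 (adjusted p = 0.451). SEPT3, a septin gene beside LINC00634, had 0.85 (adjusted p = 0.000698), and ZSCAN2, a zinc finger gene beside LINC00933, had 0.30 (adjusted p = 0.293). SPANXB1, a cancer-testis gene beside LINC00632, was listed at 0 in untreated cells and had clone means of 0.0305 to 5.17 scaled TPM. Whether any pair shares control was not tested.

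**Figure D3:**
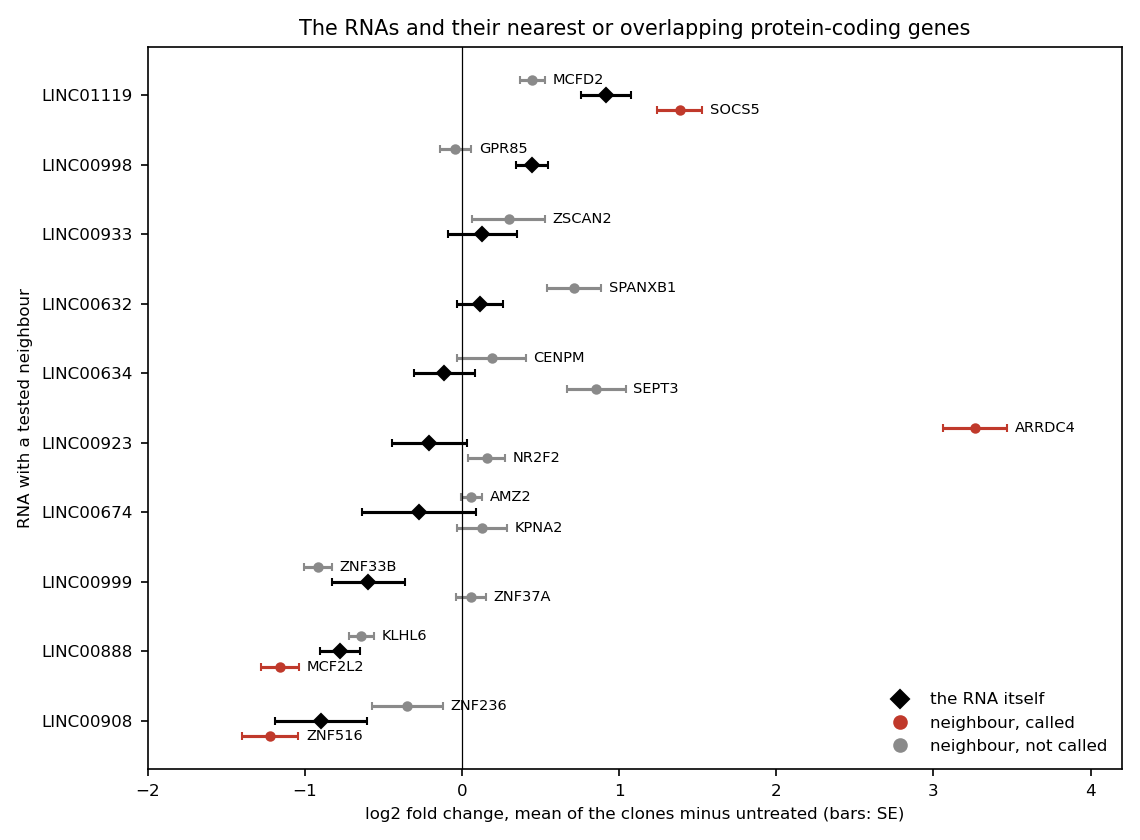
Log2 difference of the mean of the 7 clones from untreated for LINC-named RNAs and for their nearest protein-coding neighbours that were tested, with bars of 1 SE. Among the neighbours, SOCS5 at 1.39 and ARRDC4 at 3.26 are above 1, and MCF2L2 at -1.16 and ZNF516 at -1.22 are below -1.

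Other groups that handle noncoding RNAs were read beside the same shares of all genes, 18.8% called and 60.6% at an unadjusted p under 0.05. Of 13 microRNA processing genes tested, 0 were called by limma, 7 had an unadjusted p under 0.05, and the median log2 difference was -0.20; XPO5, the exporter of microRNA precursors, had -0.73 (adjusted p = 2.34e-05) and AGO2, the slicing Argonaute, 0.54 (adjusted p = 0.00685). Of 17 paraspeckle and nuclear speckle genes, 0 were called, 9 had an unadjusted p under 0.05, and the median was -0.09; SRRM2, a speckle scaffold, had -0.64 (adjusted p = 0.0145). Of the genes of the imprinted DLK1-DIO3 locus 1 was tested, WDR25 at 0.53, and it was not called. Markers fixed for cells other than melanocytes were also read. Among genes listed for keratinocytes, 1 of 4 tested was called higher, KRT18 at 1.13 (limma adjusted p = 0.00112), and all 4 had an unadjusted p under 0.05. KRT18 is not specific to keratinocytes. KRT14 reached 2.46 scaled TPM and TP63 4.54 in the highest clone library, while KRT5 was at 0 in untreated cells and at most 0.0591 in clone libraries. The keratinocyte list summed to 46.1 to 52.7 in untreated and 47.1 to 312 in clone libraries. Most of that sum was KRT18, with a mean of 39.9 in untreated and 34.4 to 293 in clone libraries. Of 3 endothelial genes tested 0 were called and all 3 had an unadjusted p under 0.05: VWF had 0.95 (adjusted p = 5.58e-06) and reached 2.58, PECAM1 had 0.68 (adjusted p = 0.00113) and reached 2.97, and TIE1 had -0.53 (adjusted p = 0.000549), while CDH5, not tested, was at most 0.083. The endothelial list summed to 1.54 to 1.66 in untreated and 1.46 to 5.43 in clone libraries. The 1 immune gene tested, PTPRC, was not called at 0.08 (adjusted p = 0.791) and reached 4.97, with CD3E at most 0.0232; that list summed to 2.21 to 2.76 in untreated and 1.02 to 6.43 in clone libraries. The part of these markers in the levels of the 12 RNAs was not tested.

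**Figure D4:**
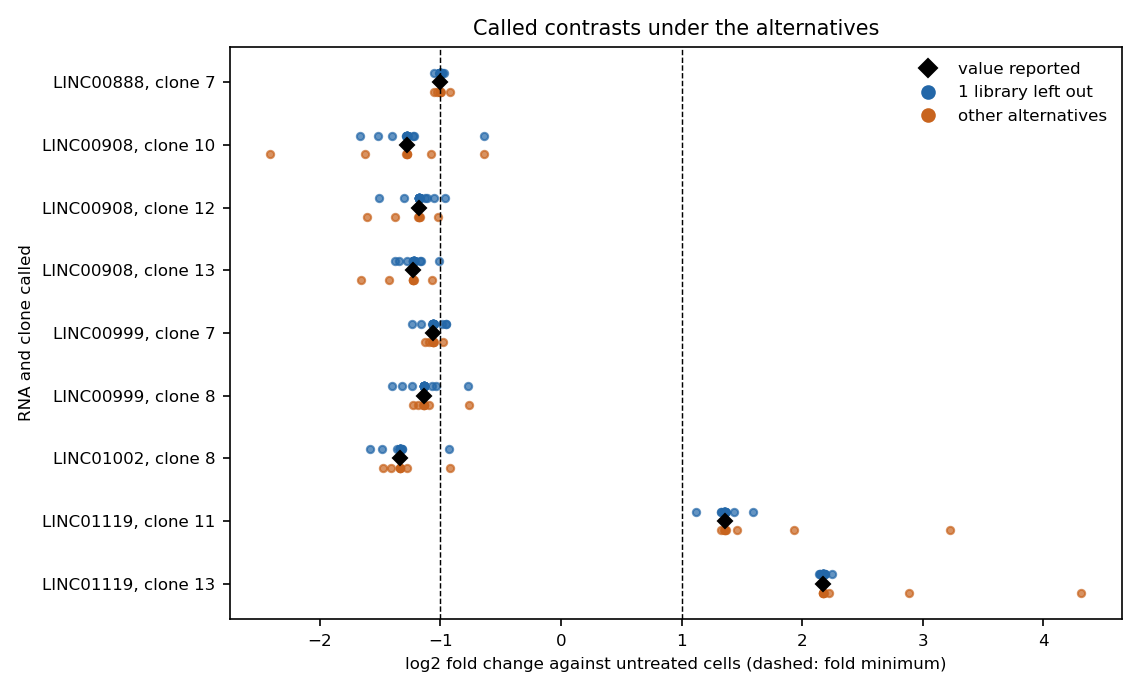
Difference of each called RNA and clone from untreated on the log2 scale, with a diamond for the value reported, blue points with 1 library left out, orange points for other alternatives and dashed lines at the fold minimum. LINC01119 in clone 13 stays at 2.14 to 4.32, while LINC00888 in clone 7 lies at -1.05 to -0.92 across the minimum.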

How the data were processed

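RNA was measured in 23 libraries, 3 of untreated cells and 20 of 7 resistant clones. The values are TPM that the authors deposited, each column summing to 1000000; kallisto and the build hg19 are given, without versions, per the submitters' processing notes. From these, scaling factors were computed as trimmed means of log ratios (trims of 30% on the log ratio and 5% on the mean) over 10822 genes at 1 TPM or more in every library. Genes at 1 TPM or more in at least 2 libraries (15657) were tested with limma 3.58.1 (R 4.3.3, lmFit and eBayes with trend) on log2(scaled TPM + 1), with 8 groups, and p-values were adjusted over all genes. The arms were tested on clone means. RefSeq names, neighbours and start regions and the sharing of 31-base words in GENCODE v29 transcripts, which are not the authors' annotation, were computed with Python 3.11.15 and pandas 2.3.3. The method was tested on simulated data. The set and the gene lists were chosen with earlier results of these data known. All 12 RNAs are named, with every call given; the rule for named genes otherwise asked for the largest changes, and its parts on small nucleolar RNA and microRNA hosts found none by name. Alternatives were other pseudocounts, filters and scaling, each replicate left out, a replicate term, and 2 libraries left out. Precision rests on 2 or 3 libraries per group.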

Additional observations from a re-analysis of the deposited data

Results flagged for a closer look

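The level of LINC00537 in clone 10 stood away from those of the other clones: its gap to the nearest of the other clone means, as a share of the range over the 7, was 0.734, above Dixon's 95% critical value for 7 values. Its libraries were at 0, 2.42 and 0.818 scaled TPM, and the library at 0 is the one with few detected genes. Chance flags about 1 in 20 groups in such a check.

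With a range of clone means of at least 1, 3 RNAs differed among the clones by limma's F test, with adjusted p = 1.02e-05 for LINC01119, 6.65e-05 for LINC00998 and 0.0314 for LINC00999. The last had a range of 1.05 and an adjusted p of 0.0543 without clone 10 replicate 1 and clone 8 replicate 3. The difference of LINC01119 is partly built into its selection, since it passed the TPM minimum through clone libraries alone.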

How the results depend on the processing

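Most counts of called RNAs changed under at least 1 setting; those of clone 11 and of the drug arms did not under any that was run. For the mean of the clones 1 was called higher with a pseudocount of 0.1 (LINC01119 at 2.33) and 1 with 0.5 (1.33), and 1 lower with 0.5 (LINC00908 at -1.05). With a pseudocount of 0.1, 1 was called in clone 9, 2 in clone 10 and 1 in clone 13, and with 0.5, 1 in clone 9 and 3 in clone 10. Over all settings run, the highest count was 3 in clone 7 and 3 in clone 8. In the values as deposited 0 were called in clone 7 and 2 in clone 12, and with only that clone and untreated in the fit 0 in clone 10. Without the 2 libraries that stand apart, a choice made after seeing the data, there was 1 in clone 7, 0 in clone 8 and 0 in clone 10. Leaving out each replicate gave 0 to 1 called lower in the mean, 0 to 2 in clone 7, 0 to 2 in clone 8, 0 to 4 in clone 10, 0 to 2 in clone 12, 1 to 2 in clone 13 and 2 to 5 in the F test; a clone 11 left with 1 sample was assumed to vary like the others. The mean difference of LINC00634 ran from -0.20 to 0.0071 with a replicate left out, and was above 0 only without untreated replicate 3. LINC00908 lost its calls in clones 12 and 13 with a pseudocount of 0.1 (adjusted p = 0.129 and 0.115) and in clone 10 with only that clone and untreated in the fit (0.106). A replicate block left every count as it was. In single clones these were 2 in clones 7, 8 and 13, 0 in clone 9 and 1 in clones 10, 11 and 12. In the F test the count was 3 and in the mean 0. Same-numbered libraries of different groups had a median correlation of 0.0143 of their deviations (-0.62 to 0.42). Differently numbered ones had -0.0089 (-0.57 to 0.72). These medians show no general pairing by number, but cannot tell whether some libraries share a batch. The cause of the changes in counts and calls was not tested. Depth is unknown.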

Other observations

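LINC00346 and LINC00552 were picked from the 11 LINC names under the TPM minimum because most of their clone libraries lay above all untreated ones. The other names had 0 to 6 such clone libraries. None of these levels was tested, and the share of all genes with this pattern is not given here. LINC00346 was at 0.0365 to 0.104 scaled TPM in untreated libraries and 0 to 0.916 in clone libraries, 19 of 20 above all untreated ones. LINC00552 was at 0.0177 to 0.0278 in untreated libraries and 0 to 0.165 in clone libraries, again with 19 of 20 above. These levels are far below 1 TPM, and their depth is unknown.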
